A study of Mus musculus with 4 samples.

Results

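The genes of the cytosolic ribosomal proteins were followed through 4 peak lists of open chromatin. Members were the protein-coding RefSeq genes of GRCm38 named Rpl or Rps with a digit, together with Rplp0, Rplp1, Rplp2 and Rpsa, and without the Rps6k kinases. This gave 91 of 21631 protein-coding genes on chromosomes 1 to 19 and X. Peaks of the 4 libraries that overlapped by at least 1 bp were merged, and 156 of 171490 merged regions lay within 1 kb of either end of a member. By role, 31 members encode proteins of the small subunit, 43 proteins of the large subunit and 3 proteins of the stalk. The remaining 14 match the naming rule as paralogs, retrotransposed copies or interacting proteins, so the standard set holds 77 genes.

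Chromatin was profiled by Omni-ATAC-seq, in which the transposase Tn5 cuts and tags accessible DNA, in immature γδ thymocytes. The cells were double negative for CD4 and CD8 and carried CD3e, the γδ T cell receptor and CD24, with low CD45RB. They were sorted from thymi of fetuses at embryonic day 17 to 18, backcrossed to C57Bl/6 for 5 generations. The WT group was Maf+/+ with Il7r-Cre and the KO group was Maf fl/fl with Il7r-Cre, so both groups carried the Cre, which the Il7r locus drives in lymphoid precursors. Each genotype had 2 libraries, WT 1 and WT 2 against KO 1 and KO 2. Fetuses were pooled, each library started from 15 to 17 × 1000 cells, and libraries were amplified for 9 to 11 PCR cycles. Nothing in the labels tells whether replicate libraries stem from separate pools, so p-values measure the spread between these libraries, which may be technical. The comparison asks whether accessibility differs without c-Maf, a transcription factor needed by the γδ T cells that make IL-17.

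Ribosomal proteins form the small and large subunits around ribosomal RNA, and cells make them in nearly equal amounts from genes scattered over the genome. Many of these genes start transcription at a C within a run of pyrimidines, the terminal oligopyrimidine tract, through which their mRNAs respond to growth signals. In thymocytes, the large-subunit protein Rpl22 is known for its need in αβ lineage cells, while γδ cells develop largely without it.

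Promoters are shown for members that mark the ends of the range and for the pair Rpl22 and Rpl22l1. Each line runs 5′ to 3′ on the strand of the gene, from 120 bases before the listed start to 30 bases from it onward, with sequence and start from the RefSeq promoter table of GRCm38. Capitals mark 3 things: CCGGAAG or its reverse complement, the core bound by ETS factors, the palindrome made of TCTCG and its reverse complement, and a C with at least 4 pyrimidines after it within 10 bases of the start. Rplp0 stands for the highest ranks (plus strand, chr5:115559347-115559496). Rps6 (minus strand, chr4:86857338-86857487) and Rps21 (plus strand, chr2:180257259-180257408) were chosen for their ETS cores and pyrimidine runs, and Rps6 also holds the palindrome. Rps2 has no peak at its gene ends and a tall one at its listed start (plus strand, chr17:24719943-24720092). Rpl22 has a closed listed start (plus strand, chr4:152324316-152324465) and an open one (plus strand, chr4:152325606-152325755). Its paralog Rpl22l1 lies at chr3:28805388-28805537 on the plus strand. Rpl10l (minus strand, chr12:66284372-66284521) and Rpl32l (plus strand, chr10:20208319-20208468) had no peak in any library. Rps6, Rps21 and Rps2 were chosen for display after their values were seen.
Rplp0: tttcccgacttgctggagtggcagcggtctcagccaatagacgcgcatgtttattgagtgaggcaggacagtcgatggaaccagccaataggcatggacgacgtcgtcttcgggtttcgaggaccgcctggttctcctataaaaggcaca
Rps6: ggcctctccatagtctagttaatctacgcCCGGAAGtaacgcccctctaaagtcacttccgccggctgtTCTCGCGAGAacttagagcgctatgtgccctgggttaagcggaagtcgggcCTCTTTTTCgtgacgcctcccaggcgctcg
Rps21: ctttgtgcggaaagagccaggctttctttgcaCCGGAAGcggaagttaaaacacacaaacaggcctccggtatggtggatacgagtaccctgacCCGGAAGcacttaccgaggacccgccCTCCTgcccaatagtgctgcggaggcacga
Rps2: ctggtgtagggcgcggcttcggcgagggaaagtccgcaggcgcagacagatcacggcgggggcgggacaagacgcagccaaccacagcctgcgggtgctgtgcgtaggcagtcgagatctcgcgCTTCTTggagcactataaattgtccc
Rpl22 closed start: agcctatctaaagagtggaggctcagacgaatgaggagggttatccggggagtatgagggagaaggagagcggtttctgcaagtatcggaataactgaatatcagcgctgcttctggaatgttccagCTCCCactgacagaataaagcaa
Rpl22 open start: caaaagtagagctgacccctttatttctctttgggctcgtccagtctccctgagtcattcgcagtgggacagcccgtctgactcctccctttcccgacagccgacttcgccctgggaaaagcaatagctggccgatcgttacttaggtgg
Rpl22l1: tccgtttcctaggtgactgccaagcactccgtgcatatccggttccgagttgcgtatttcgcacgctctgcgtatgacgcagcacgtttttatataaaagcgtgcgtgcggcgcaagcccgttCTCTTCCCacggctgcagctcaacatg
Rpl10l: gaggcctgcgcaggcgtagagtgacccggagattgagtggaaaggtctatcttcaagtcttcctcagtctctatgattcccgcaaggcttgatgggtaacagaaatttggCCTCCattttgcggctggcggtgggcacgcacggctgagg
Rpl32l: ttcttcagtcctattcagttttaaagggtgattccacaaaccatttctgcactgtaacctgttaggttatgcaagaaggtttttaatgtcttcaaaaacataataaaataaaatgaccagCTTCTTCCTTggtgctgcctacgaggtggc

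WT 1 held 102718 peaks on the autosomes and X, WT 2 held 132179, KO 1 held 130935 and KO 2 held 120141. Read totals were not analysed here, so depth is known only through these numbers and the background. Background pileup is here the lowest value the caller expected at a position, as solved from the weakest peaks of each library. Whether it counts fragments, reads or cut sites is not given. This background was 1.57 and 1.38 in WT 1 and WT 2 and 0.877 and 0.758 in KO 1 and KO 2. WT and KO were thus apart in background, and its part in any difference below was not tested. Peak height is the authors' −log10 q, computed within each library and called height below. Because lists of unequal length give unequal ranks, the 102718 tallest peaks of each library were ranked, and a gene took the percentile of its tallest gene-end peak, from 100 for the tallest to 0 for none. As a check of the sort, 10 of 10 γδ T cell markers had a gene-end peak in all 4 libraries. All 7 αβ thymocyte markers, which share T lineage genes, did so too, against 3 of 6 B cell, 2 of 7 myeloid, 3 of 6 erythroid and 3 of 8 stromal and endothelial markers. Pax5, Mpo, Csf1r, Lyz2, Gata1, Alas2 and Pdgfra had no peak in any library. The median percentile of the γδ markers was 89.0 and 88.2 in WT and 84.3 and 87.5 in KO. For the myeloid markers it was 0.0 in every library, for the erythroid markers 1.66 and 8.74 in WT and 39.4 and 7.74 in KO, and for the B cell markers 11.9 and 0.0 in WT and 1.17 and 9.72 in KO. For the stromal and endothelial markers it was 15.4 and 7.64 in WT and 9.64 and 2.14 in KO, and for the αβ markers 78.5 and 66.7 in WT and 80.7 and 70.2 in KO. The part of these markers in the results was not tested.

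Ribosomal protein genes were open at their ends in both genotypes. A gene-end peak was found at 83 members in WT 1, 84 in WT 2, 82 in KO 1 and 83 in KO 2. WT averaged 83.5 ± 0.707 genes and KO averaged 82.5 ± 0.707 (SD, n = 2 per genotype), with an exact permutation p of 0.667 (2-sided). With 2 libraries against 2, the smallest p this test can give is 0.333, so no difference could have passed 0.05. The WT and KO libraries overlapped at 83 genes.

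Peaks were present in all 4 libraries at 81 of 91 members (89.0%), against 12964 of 21631 protein-coding genes (59.9%). Among the standard members it was 75 of 77. The mitochondrial ribosomal protein genes, whose products form the separate ribosome of mitochondria, reached 76 of 78. Pseudogenes named after members, many of them processed copies inserted elsewhere, had such a peak at 17 of 310 (5.48%). In single libraries, 24 and 31 pseudogenes had a peak in WT 1 and WT 2, and 34 and 30 in KO 1 and KO 2.

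**Figure D1:**
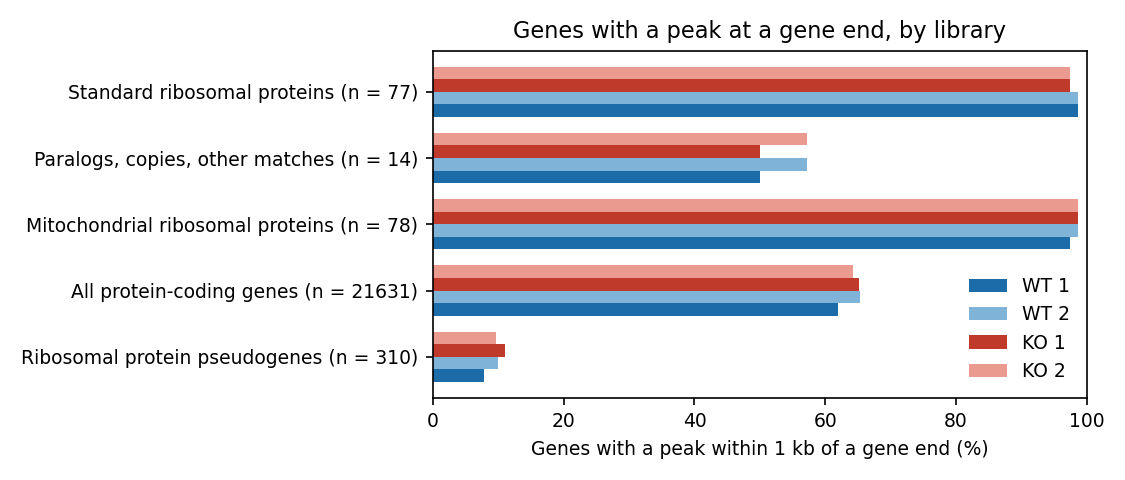
Share of genes with a gene-end peak (x axis, percent) for 5 gene sets (y axis), 1 bar for each library. In each library 75 or 76 of 77 standard genes and 76 or 77 of 78 mitochondrial ribosomal protein genes have a peak, against 24 to 34 of 310 pseudogenes.

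The peaks were tall as well as common. The median percentile of the 91 members was 90.5 and 90.6 in WT 1 and WT 2, and 90.6 and 90.05 in KO 1 and KO 2. Over all protein-coding genes the same median ran from 57.9 to 59.6, and over the mitochondrial ribosomal protein genes from 89.0 to 90.3. The KO mean minus the WT mean was −0.247 percentile points for the members (WT 90.6 ± 0.0695, KO 90.3 ± 0.401, SD, n = 2 per genotype), with an exact permutation p of 0.667. In the top 10% of ranked peaks were 48 members in each WT library, 47 in KO 1 and 46 in KO 2, which is 50.5% to 52.7% of the members against 26.0% to 26.8% of all genes. Over the 4 libraries, 46 members averaged at least 90, 26 lay between 80 and 90, 12 were below 80 with a ranked peak somewhere, and 7 had none.

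**Figure D2:**
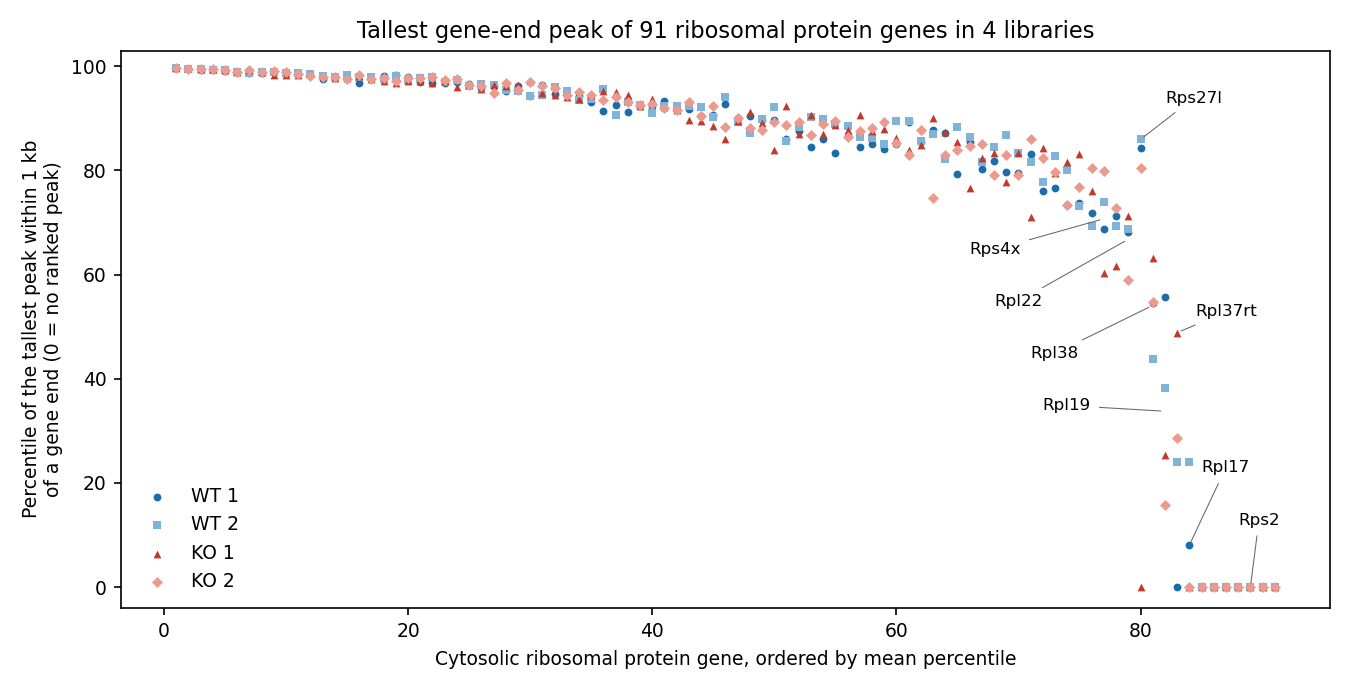
Percentile of the tallest peak within 1 kb of a gene end (y axis, 0 for no ranked peak) for each of the 91 members (x axis, ordered by the mean over libraries), with 1 symbol for each library. The 46 members averaging at least 90 form a flat shoulder on the left, and the 7 members without a gene-end peak lie at 0 on the right.

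The 3 stalk genes sat high on the scale. Rplp0, the scaffold protein of the stalk that recruits translation factors, spans chr5:115559467-115563729. Its peak had heights of 270.7 in WT 1, 445.7 in WT 2, 349.7 in KO 1 and 382.7 in KO 2, with the summit 86 bp before the start in every library. The promoter printed above lies inside that peak, which ran from 115559219 to 115559567 in WT 1. Rplp1, an acidic protein bound to the scaffold, had percentiles of 95.3 and 95.5 in WT and 96.2 and 96.8 in KO. Its partner Rplp2 had 92.4 and 90.99 in WT and 93.7 and 92.8 in KO. For all 3 both KO libraries ranked above both WT libraries, by 0.10 points for Rplp0, 1.08 for Rplp1 and 1.55 for Rplp2, where the background over all ranked genes was 18.0%. The peak of Rplp2 also lies within 1 kb of an end of Pidd1, so it cannot be given to Rplp2 alone.

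Small-subunit genes had a median percentile of 91.7 and 92.3 in WT and 92.5 and 92.6 in KO, with a peak in all 4 libraries at 30 of 31. Rps6, the substrate of the S6 kinases, had heights of 123.6 and 267.1 in WT and 203.6 and 233.9 in KO. Its percentiles were 96.8 and 98.0 in WT against 98.2 and 98.3 in KO, so the KO libraries lay above the WT libraries by 0.84 points on average. Rpsa, also known as the laminin receptor, had percentiles of 95.9, 96.7, 95.6 and 96.2 in WT 1, WT 2, KO 1 and KO 2, which overlap. Rps14 and Rps19, both needed to process the RNA of the small subunit, averaged 92.5 and 97.6 with overlapping genotypes. The lowest of this subunit with a gene-end peak was the X-linked Rps4x, with 68.8 and 73.9 in WT and 60.3 and 79.8 in KO. The KO libraries of Rps4x lay on either side of the WT libraries.

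Large-subunit genes included several of the tallest peaks of the family. Rpl18, Rpl27 and Rpl13a had mean percentiles of 99.4, 99.4 and 99.3. For Rpl18 that peak lay at a gene end, with its summit in WT 1 at −2740 bp from the listed start. Within 500 bp of the listed start of Rpl18 the heights were 14.37 and 25.05 in WT and 26.65 and 20.85 in KO. The mean percentile there was 62.4. Rpl13a, a gene with 4 small nucleolar RNAs inside it, had heights of 226.5 and 389.1 in WT and 282.5 and 340.0 in KO. As a subunit, the median was 90.1 and 90.3 in WT and 89.1 and 89.6 in KO. Rpl5 and Rpl11, which bind Mdm2 when ribosome assembly stalls, averaged 82.2 and 95.8. The X-linked Rpl10, a late-joining protein of the large subunit, had 93.2 and 93.8 in WT and 94.5 in both KO libraries.

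Rpl22 and its paralog Rpl22l1 are a known pair in which one can stand in for the other. Rpl22 spans chr4:152324436-152334082 and has more than 1 listed start. At the start at 152324436, the first of the Rpl22 promoters printed above, no library had a peak. At 152325726, the other, the heights were 73.7 and 128.6 in WT and 108.5 and 107.3 in KO. The percentiles there were 92.7, 92.2, 94.3 and 92.4 in WT 1, WT 2, KO 1 and KO 2, so the genotypes overlapped. Because that start lies more than 1 kb from both gene ends, the gene-end rule instead took a small peak near the far end, with heights of 17.9, 36.7, 27.7 and 21.4 in the same order. Rpl22l1 had heights of 141.8 and 268.2 in WT and 174.0 and 201.5 in KO at its start. Its percentiles were 97.6 and 98.1 in WT and 97.5 and 97.6 in KO, a difference of −0.27 points without overlap.

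Of the 7 members without any gene-end peak, Rps2 is a standard gene. Rps2, a core protein of the small subunit, spans chr17:24718121-24721927, and its listed start at 24720063 lies inside that span, over 1 kb from each end. There the heights were 157.0 and 208.3 in WT and 148.5 and 178.9 in KO, and the peak of WT 1 ran from 24719829 to 24720177 over the promoter printed above. The other members without a gene-end peak were Rpl10l, Rpl31-ps12, Rpl32l, Rpl39l, Rps23rg1 and Rps27rt. Rpl10l and Rpl39l are paralogs known from the testis. All 6 are among the 14 paralogs and copies. When the whole gene with 1 kb on each side was searched, the 77 standard members all had a peak in every library. This wider search is given without the same share over all genes.

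The other paralogs and copies ranged from closed to tall. Rpl36al, a paralog of Rpl36a, averaged 97.7, and its peak is shared with Mgat2. Rpl7l1 averaged 85.9, and Rps19bp1, which encodes a partner of Rps19 and no ribosomal protein, averaged 94.0. For Rpl3l, a paralog known from muscle, the tall peak with a mean percentile of 97.4 lay next to Msrb1 and about 3822 bp from the nearest listed start of Rpl3l in WT 1. No library had a peak within 500 bp of a listed start of Rpl3l. In total the tallest peak of 16 members lay in a region that also touched the end of another protein-coding gene, and 44 of the 156 regions did so.

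Region calls gave few differences between genotypes. Of the 156 regions, 117 (75.0%) were called in all 4 libraries, against 65.6% of the 24715 regions at the ends of all protein-coding genes. Only 1 was called in both WT and neither KO library, where the background for all gene ends was 1.44%, and 0 were called in both KO and neither WT library, where it was 1.58%. The WT-only region lay beside Rpl39, a small X-linked protein of the large subunit, at chrX:37085813-37085936. Its heights were 2.05 in WT 1 and 4.33 in WT 2, close to the lower limit of the lists. The tallest gene-end peak of Rpl39 was called in all 4 libraries, with 22.4 and 60.9 in WT and 44.4 and 37.1 in KO. Its genotypes overlapped. With any 1 library left out, WT-only regions numbered 4 to 8 and KO-only regions 1 to 6.

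**Figure D3:**
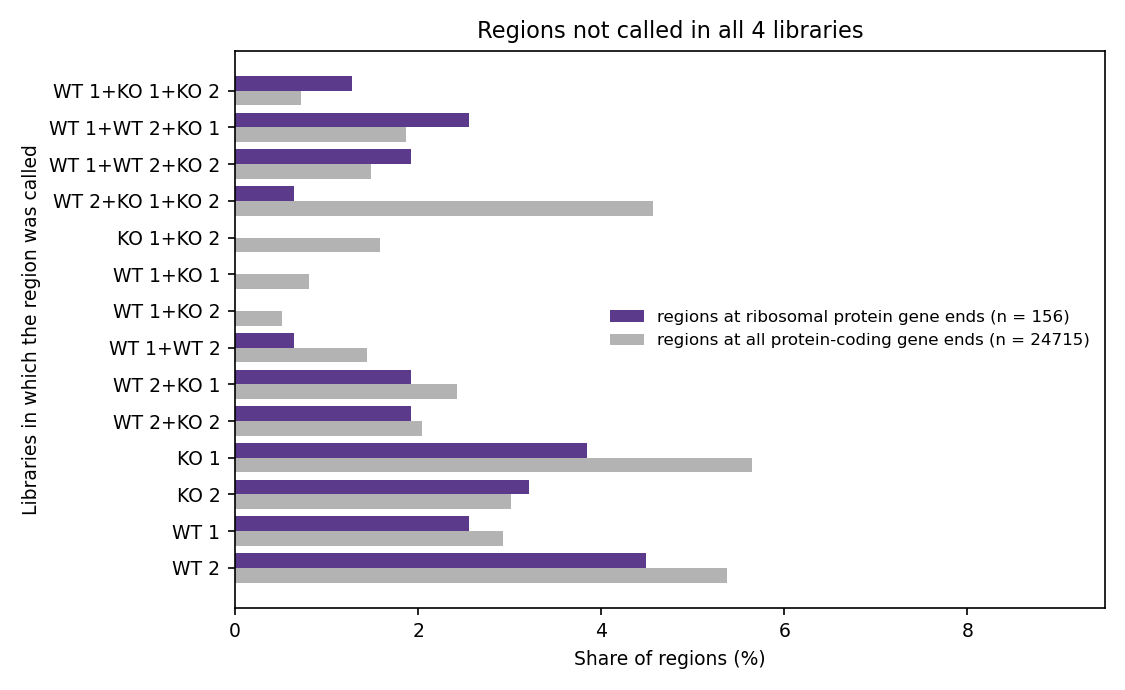
Share of regions (x axis, percent) for each combination of libraries short of all 4 (y axis), for the 156 regions at member ends and the 24715 at the ends of all protein-coding genes. Members have 1 region in the WT pair and 0 in the KO pair.

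Both KO libraries ranked above both WT libraries at 21 of the 84 members with a ranked peak (25.0%), where the background over 14310 ranked genes was 18.0%. Both WT libraries ranked above both KO libraries at 13 (15.5%), with a background of 17.5%. These shares are given with no test, and with 1 library left out the counts ran from 28 to 38 and from 18 to 32, since fewer values then have to separate. When peaks were ranked by fold enrichment in place of −log10 q, 16 members were KO-higher and 16 WT-higher. The KO mean lay within 5 points of the WT mean at 73 of the 81 members with a peak in all 4 libraries. That count is given without the same share over all genes, so it does not set the members apart. The mitochondrial ribosomal protein genes gave 9 KO-higher and 11 WT-higher of 77 ranked.

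Among members whose KO libraries lay above the WT libraries, Rpl37rt, a copy of Rpl37, had the largest difference, with means of 12.01 in WT and 38.8 in KO. It rested on a weak region with heights of 8.5 in WT 2, 12.6 in KO 1 and 8.82 in KO 2 and none in WT 1. A taller peak inside the gene had heights of 15.3 and 37.6 in WT and 35.6 and 24.4 in KO. The percentiles of that inner peak overlapped, with 64.4 and 69.5 in WT and 77.1 and 62.7 in KO. Rps15, a protein of the small subunit, had percentiles of 73.8 and 73.3 in WT against 83.2 and 76.8 in KO, a difference of 6.46 points. Rpl34-ps1, an Rpl34 copy, had means of 76.9 and 83.4, a difference of 6.47 points. By gene ends, the KO libraries lay above the WT libraries in each of these 3 genes.

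In the other direction, Rpl26, a large-subunit protein, had the largest difference at a peak beside a listed start. Its heights were 73.5 and 153.5 in WT and 56.9 and 77.7 in KO, and its percentiles were 92.7 and 94.1 against 86.1 and 88.3. Both KO libraries lay below both WT libraries, a difference of −6.19 points. Rpl7, whose peak is shared with Rdh10, had 89.4 in both WT libraries against 84.0 and 83.0 in KO. Larger gene-end differences stood at Rps27l (−44.9 points), Rpl19 (−26.4) and Rpl17 (−16.1). Rps27l, a paralog of Rps27, had peak heights of 39.8, 83.1, 52.5 and 50.8 in WT 1, WT 2, KO 1 and KO 2. The KO 1 peak began at 66945718, just outside 1 kb from the gene end at 66944624, and so counted as absent. For Rpl17 the tall peak inside the gene had 45.7 and 70.5 in WT and 47.9 and 65.98 in KO. The rule instead took a weak peak of 2.41 and 8.53 near the end in WT. The same merged region was also called in KO 1 at 2.81, where the peak lay outside 1 kb and so counted as absent. The gene-end peak of Rpl19 was weak in every library, with 11.2, 12.8, 6.51 and 6.28.

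Listed starts gave a second reading of the lists, without the dependence on gene ends, and for some members, such as Rpl22, Rps2 and Rpl38, the tallest peak there was another one. This window of 500 bp around each start was added after the gene-end values had been seen. Of the 70 members with a listed start, 62 had a peak there in all 4 libraries (88.6%), against 58.1% of 17274 genes, and the other 8 had none in any library. Their median percentile was 90.3 and 90.01 in WT and 90.2 and 89.4 in KO over the 70, with 55.7 to 57.0 over all genes. KO ranked higher at 15 of 62 (24.2%, background 17.4%), WT at 8 (12.9%, background 17.2%), and the libraries overlapped at 39. Differences ran from −6.19 points at Rpl26 to 7.37 at Rpl19, and 56 of 62 were within 5 points, again without the share over all genes. At Rpl19 the sign was opposite to that at its gene ends. Its peaks near the starts were weak, with heights of 7.75 and 10.2 in WT and 9.8 and 15.7 in KO. The percentiles there overlapped, with 45.1 and 29.7 in WT and 40.8 and 48.8 in KO. The median difference was −0.02 points, against 0.01 over all genes.

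Rpl38, known for its part in the translation of Hox mRNAs, was read at different peaks by the windows. By gene ends it had 54.6 and 43.7 in WT against 63.2 and 54.8 in KO, a difference of 9.82 points. That peak covered the listed start at 114668580 and ran from 114668390 to 114668644 in WT 1. The 500 bp around that start also reached a taller peak downstream, which ran from 114669040 to 114669263 in WT 1. Its heights were 44.2 and 64.7 in WT and 41.6 and 40.3 in KO. There the percentiles were 86.1 and 81.4 in WT against 80.4 and 75.5 in KO, a difference of −5.82 points. Both windows separated the genotypes in opposite directions, but at different peaks.

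**Figure D4:**
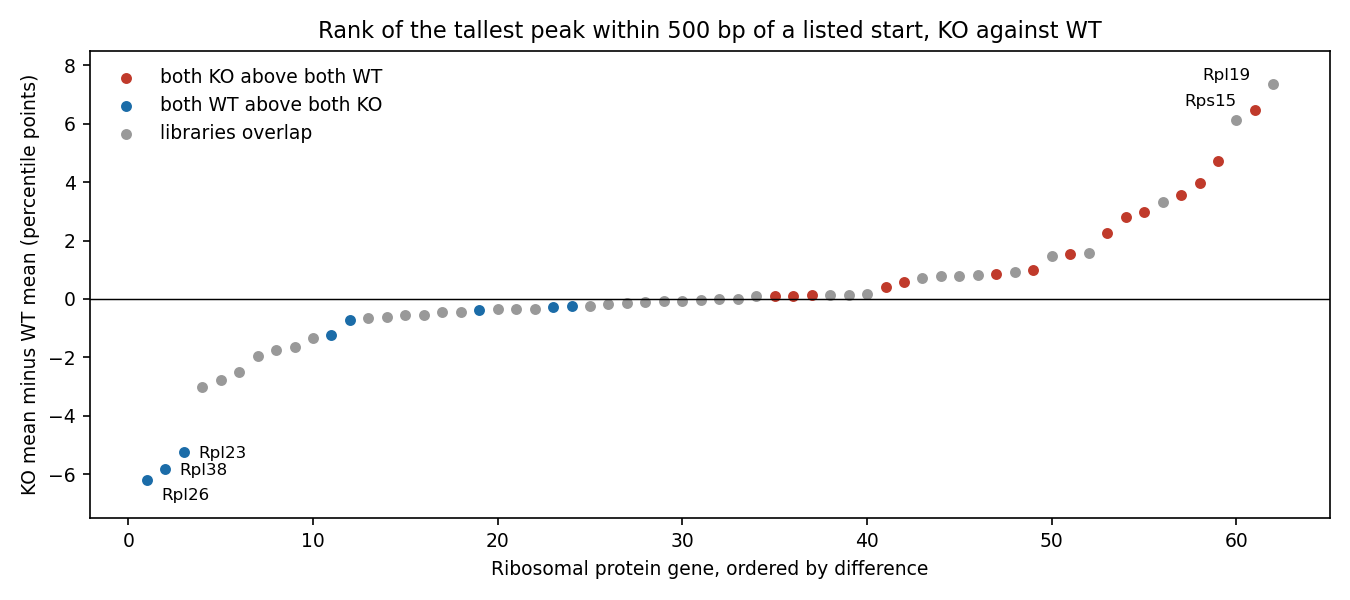
KO mean minus WT mean percentile of the tallest peak within 500 bp of a listed start (y axis, percentile points) for the 62 members with such a peak (x axis, ordered by difference). Red points have both KO libraries above both WT libraries (15 genes), blue points the reverse (8), and grey points overlap (39).

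Summits lay just upstream of the starts. Over members with a listed start, the median signed distance from start to summit was −50 and −49 bp in WT and −54 and −45 bp in KO, negative values being upstream. Between 42 and 45 of 62 or 63 genes had the summit within 100 bp. With the nearer gene end used where no start was listed, the median unsigned distance was 58 and 61.5 bp in WT and 67 and 68 bp in KO. The means were 59.8 ± 2.47 bp and 67.5 ± 0.707 bp (SD, n = 2 per genotype), and the exact permutation p of 0.333 is the smallest possible. Median peak width was 380 and 392 bp in WT against 347 and 379 bp in KO, with means of 386 ± 8.49 and 363 ± 22.6 bp and an exact permutation p of 0.333. In both measures the genotypes did not overlap, nor did they in background pileup, and for width WT 1 and KO 2 were 380 and 379 bp. Without the 14 copies the genotypes overlapped in both measures, with differences of 3.5 and −20.5 bp and exact permutation p of 0.667 for each.

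**Figure D5:**
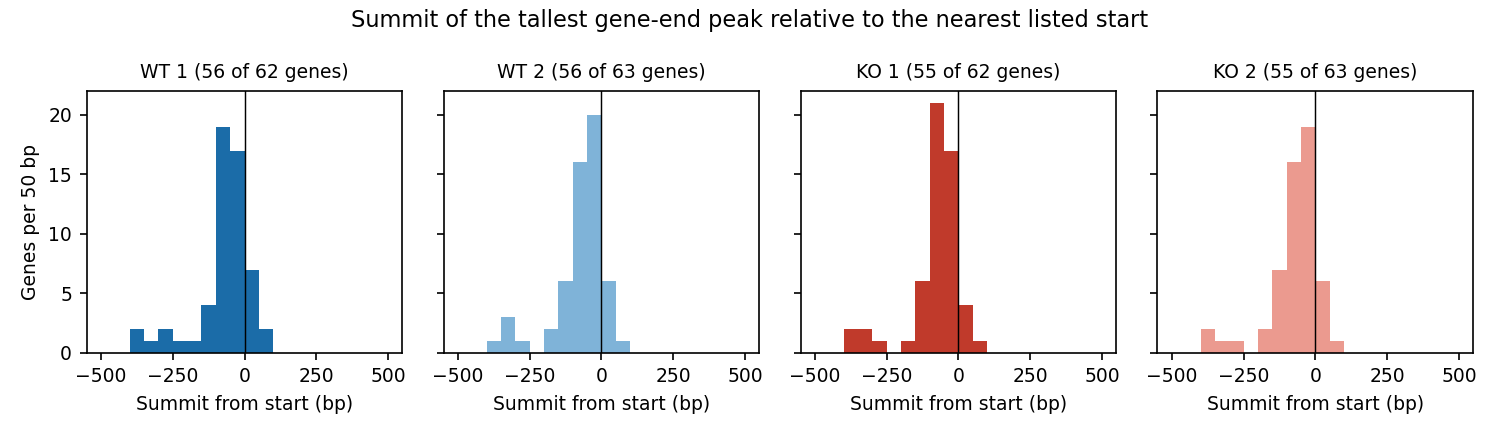
Distance from the nearest listed start to the summit of the tallest gene-end peak (x axis, bp, negative upstream), as genes per 50 bp (y axis), in 1 panel for each library. Summits cluster within 100 bp of the start, mainly upstream, and summits beyond 500 bp (6 to 8 genes for each library) are not drawn.

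Promoter letters were searched on both strands in the 300 bases of the RefSeq table around 1 start for each gene, for 70 members and 17274 protein-coding genes. The ETS core CCGGAAG occurred in 25 members (35.7%), against 12.1% of all genes and 34.8% of mitochondrial ribosomal protein genes. Of its 30 matches in members, 26 lay under a peak in all 4 libraries and 4 under none. The palindrome of TCTCG occurred in 5 members (7.1%, all genes 0.7%), namely Rpl12, Rps6, Rps19, Rpl26 and Rps28, and each match lay under a peak in all 4 libraries. A peak within 500 bp of a listed start was present in all 4 libraries at 88.6% of the 70 members. Matches over all genes were not placed under peaks, so peaks over either motif do not set its matches apart. The Rps6 promoter printed above holds both elements. Members with the ETS core had a median percentile of 90.3 and members without it 88.8, while over all genes the medians were 89.5 and 46.6.

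A pyrimidine run beginning exactly at the listed start was found in 14 members (20%), against 2.2% of all genes and 0 of 69 mitochondrial ribosomal protein genes. Within 10 bases of the start the shares were 57.1%, 31.5% and 43.5%. Rpl32l carries such a run at its start and had no peak. AAGATGGC, a YY1 motif, occurred in 8.6% of members and 3.2% of all genes, GGGCGG in 57.1% and 46.9%, CCAAT in 31.4% and 39.6%, and TATAAA in 12.9% and 13.4%. The Maf recognition element, TGCTGA and its reverse complement with any base between them, was found in 0 promoters of either set. With 0 in both, an exact search for this long element could not tell members from other genes. TGCTGA alone, which lies inside that element, occurred in 10% of members and 17.9% of all genes. A match is a description of letters only. Median GC content was 57.0% for members and 56.3% for all genes, and the median number of CpG was 21 and 14.

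Members also shared small nucleolar RNA genes, which guide the modification of ribosomal RNA. Such genes lay inside 30 of 91 members (33.0%), 59 in total, against 1.72% of all protein-coding genes. Rpl4 held 5.

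Translation factors and other genes with terminal oligopyrimidine mRNAs, such as Eef1a1, Eef2 and Rack1, had a gene-end peak in all 4 libraries at 18 of 18. Both KO libraries ranked higher at 6 and both WT libraries at 4 of these. Among genes of ribosome assembly and RNA polymerase I, 17 of 18 had a peak in all 4, with Ubtf, a polymerase I factor, at none. KO ranked higher at 5 and WT at 0 of the 17. The backgrounds are the 18.0% and 17.5% given above.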

How the data were processed

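Accessibility was measured by Omni-ATAC-seq in 4 libraries, 2 for each genotype, and the deposited files were 1 narrowPeak list per library, called separately in each. Per the submitters' processing notes, the tools included MACS2 2.1.1, Bowtie2 2.3.4.1 and deepTools 3.1.2, besides bedtools, Picard, cutadapt and Trim Galore, and the builds named are mm10 and GRCm38. Any Tn5 shift of reads, the treatment of duplicates and of reads matching several copies, and the settings of peak calling are, for this series, not given in the sources used here. Besides its position, each entry of the authors' lists has a whole-number score, a fold enrichment (a ratio to local background), and −log10 values of p and q for the summit. These deposited values were used only to rank and describe peaks within a list, down to the weakest deposited q of 0.1.

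Merging, ranking and tests were run in Python 3.11.15 with numpy 2.4.6, pandas 2.3.3 and scipy 1.17.1, after tests on simulated data. Genes came from a RefSeq table of GRCm38. Strand and starts came from the RefSeq promoter table (250 bases before to 50 after each start), which matched 70 of 91 members, and for the other 21 distances used the nearer gene end. Background pileup was solved from fold and −log10 p as deposited for the 3000 weakest peaks per library under a Poisson model. The lowest solved value of each library was taken. Library values were compared by exact permutation tests, and counts were read against all genes. Members named were those with genotype-only regions, those lacking a peak in at least 1 library, the 5 highest and 5 lowest, the 5 largest non-overlapping differences each way, and a list given by symbol, of which Rps4l was not in the gene table. Some genes that this rule names are not reported here. Named beyond this rule, after their values were seen, were Rpl12, Rps21, Rps28 and Rpl4. The members and lists were chosen with earlier results of these data known. The 13 planned and 3 added alternatives are named in the closing section.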

Additional observations from a re-analysis of the deposited data

How the results depend on the processing

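Of 102 values recomputed under the alternatives, 78 kept their direction and, for counts, stayed within 1.5 times, 21 counts moved by more and 3 turned sign. The member genes with a peak differed by 0.5 (KO minus WT) with 500 bp around gene ends, in place of −1. The median percentile differed by 0.441 when ranked within the full lists and ranged from −0.531 to 0.036 with 1 library left out, turning sign without KO replicate 2. It was −0.077 with 500 bp around gene ends and −0.112 without the copies, against −0.247. WT-only regions at members, 1 as reported, numbered 4 to 8 with 1 library left out (8 without WT replicate 1), 3 among peaks reaching 5 in −log10 q, 4 with equal numbers of peaks, 3 when 0.5 of a region had to be covered, 0 with 500 bp around gene ends and 0 on autosomes. KO-only regions, 0 as reported, numbered 1 to 6 with 1 library left out and 1 when 0.5 had to be covered. Members higher in KO, 21 as reported, numbered 28 to 38 with 1 library left out, the highest without KO replicate 1 and 37 without WT replicate 2. Members higher in WT, 13 as reported, numbered 18 to 32 with 1 library left out (32 without WT replicate 1, 31 without KO replicate 2), 7 when ranked within the full lists and 8 within 500 bp of listed starts. With 1 library left out fewer values must separate, so such counts are larger by construction. Ranking by fold enrichment gave 16 higher in KO and 16 in WT, in place of 21 and 13. Median width differed by −7 to −39 bp and summit distance by 6 to 9.5 bp with 1 library left out, against −23 and 7.75 bp as reported. Summit distance differed by 2.75 bp without the listed paralogs, 3.75 bp with gene ends and listed starts together and 3.5 bp without the 14 copies, and in these 3 the genotypes overlapped (exact permutation p of 0.667). Width overlapped in the last 2 settings and on autosomes (−19.5, −20.5 and −19.75 bp, exact permutation p of 0.667).

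With the replicate number as a block, the differences stayed at −1 gene, −0.247 points, −23 bp and 7.75 bp, and region counts at 1 and 0. Members higher in KO in both numbered pairs were 30 and in WT 19, where the backgrounds were 25.5% and 25.3% of 14310 genes. Same-numbered libraries deviated together with a correlation of 0.23 over 81 members and 0.027 over 12690 genes, and with 2 pairs the numbers were not taken to pair the libraries. Ranks lack read depth, so differences of a few percentile points between 2 libraries and 2 were not resolvable by a test, and reads shared among ribosomal protein copies were not examined.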
